A study of Mus musculus with 25 samples.

Results

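The genes described here are 9 members of the insulin-like growth factor (IGF) system in mouse lung stroma: the ligands Igf1 and Igf2, the receptor Igf1r, and the binding protein genes Igfbp2, Igfbp3, Igfbp4, Igfbp5, Igfbp6 and Igfbp7. They were taken by name, 9 of 47729 genes in the bulk table and 9 of 31053 in the single-cell libraries. All 9 were among the 15773 genes that passed the filter on low counts, and none needed a bleomycin group to pass it, since the lowest naive mean was 161 counts per library. Igfbp2 was selected on its measured bulk level, which stayed far above naive after bleomycin, and the others were chosen by family name. Its differences from naive and its differences between weeks are therefore given as a description with no test. Its differences between genotypes and its interaction of genotype and time were tested, with a limit stated there.

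The study asked what happens to lung fibroblasts when Fas, a death receptor, is deleted in Col1a1-expressing cells during bleomycin-induced fibrosis. All mice carried Col1a1-CreERT2 and floxed Fas alleles, and lineage-negative (Lin-) lung cells were sorted as CD45-, CD31- and CD326- (EpCAM-) cells. Bulk RNA-seq covered 20 libraries in 5 groups of 4, namely naive mice (labelled Control), Fas+/+ mice 3 and 6 weeks after intratracheal bleomycin (Week3 WT and Week6 WT), and Fas-/- mice at the same times (Week3 FasDel and Week6 FasDel). Single-cell RNA-seq covered the same 5 conditions with 1 library each, made from 4 pooled mice. Both bleomycin genotypes had the same Cre and floxed alleles, and Fas-/- mice received tamoxifen in corn oil where Fas+/+ mice received corn oil, so genotype and tamoxifen cannot be told apart. The sources used here do not say whether the naive mice of these libraries received such injections. Bleomycin and injections therefore cannot be told apart in differences from naive. Deletion can occur only in cells that express the Col1a1 transgene. The methods count individual animals as replicates, the labels do not tie a bulk library to an animal, and the sources used here give no age. In bulk libraries, fewer cells of a type and less RNA per cell cannot be told apart.

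IGF1 and IGF2 are secreted growth factors that signal through the IGF1 receptor, a tyrosine kinase, to promote growth and survival of many cell types. IGF-binding proteins are secreted carriers that hold IGFs in the extracellular space and can either limit or prolong their access to the receptor, and proteases that cut the carriers release the ligands. IGFBP7 differs from the other carriers in that it binds IGFs weakly. In the lung, stromal cells are a source of IGF1, and Igfbp2 is known as a gene of mature alveolar type I epithelial cells.

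Igfbp2 and Igfbp5 lie next to each other and are shown together because their bulk levels 3 weeks after bleomycin lay on opposite sides of naive (Igfbp2 higher, which it was selected on, and Igfbp5 lower). On GRCm38, Igfbp2 (ENSMUSG00000039323) spans chr1:72824503-72852474 on the plus strand with 5 exon blocks, and Igfbp5 (ENSMUSG00000026185) spans chr1:72857932-72874884 on the minus strand with 4. The genes converge, with 5458 bases between their 3′ ends. The 250 bases before each RefSeq start (GRCm38.p6) are printed 5′ to 3′ on the gene's own strand, at chr1:72824230-72824479 for Igfbp2 and chr1:72874866-72875115 for Igfbp5, with capitals marking a GC box (GGGCGG on either strand).
Igfbp2: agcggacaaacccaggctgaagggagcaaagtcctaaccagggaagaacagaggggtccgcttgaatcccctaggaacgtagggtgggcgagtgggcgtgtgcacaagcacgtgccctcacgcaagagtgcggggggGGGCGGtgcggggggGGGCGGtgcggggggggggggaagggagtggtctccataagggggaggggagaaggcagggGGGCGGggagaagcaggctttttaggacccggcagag
Igfbp5: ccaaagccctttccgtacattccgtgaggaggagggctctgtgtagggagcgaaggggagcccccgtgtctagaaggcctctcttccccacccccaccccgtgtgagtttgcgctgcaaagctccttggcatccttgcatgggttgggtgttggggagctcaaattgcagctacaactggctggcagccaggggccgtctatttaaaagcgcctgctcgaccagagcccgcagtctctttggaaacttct

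The Igfbp2 window held 3 GC boxes, 67.2% G and C, and 14 CpG dinucleotides, whereas the Igfbp5 window held no GC box, 58.8% G and C, and 10 CpG dinucleotides. A GC box was present in 32.7% of the 32851 promoter windows of the same table. The other motif searched, the TATA box (TATAAA on either strand), was in neither window and in 12.4% of all windows. A second RefSeq start of Igfbp2, with its window at chr1:72825137-72825386, had neither motif. Among the other members, the windows of Igfbp7 and Igf1r held 4 and 2 GC boxes. The Igf2 windows at chr7:142658805-142659054 and chr7:142657497-142657746 held 1 and 2. Those of Igfbp4 and Igfbp6 each held 1 match to the TATA box, that of Igfbp6 on the opposite strand.

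The other members lie on other chromosomes or far away. Igf1 spans chr10:87858265-87937042 on the plus strand, Igf1r spans chr7:67952827-68233668 on the plus strand, and Igf2 spans chr7:142650766-142666816 on the minus strand. Igfbp3 is at chr11:7206086-7213923 on the minus strand, 3540 bases from Igfbp1, and Igfbp4 is at chr11:99041244-99054392 on the plus strand. Igfbp6 is at chr15:102144362-102149511 on the plus strand and Igfbp7 is at chr5:77349240-77408041 on the minus strand. Igf2 shares 3596 exonic bases with Gm49394 on the same strand and 98 with its antisense gene Igf2os, and Igfbp7 shares 85 with Polr2b on the opposite strand. Reads in the bases that Igf2 shares with Gm49394 cannot be assigned by strand. The strand setting of the counting is not given in the sources used here. Reads in the bases shared with Igf2os and Polr2b therefore also cannot be assigned with certainty.

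Bulk depth ran from 11819700 to 25189096 counts per library with a median of 20122870, and levels are given as CPM, the usual depth-normalised count, relative to the library's total after TMM scaling. The labelled cell type was present, with the 7 lipofibroblast markers summing to 2966 to 10510 CPM and the 7 profibrotic fibroblast markers to 10880 to 56110 CPM in every library. Libraries also carried RNA of cell types that the sort removes. The 7 endothelial markers summed to 141.3 to 380.4 CPM in naive libraries and 86.1 to 7470 CPM after bleomycin, and 4 bleomycin libraries (Week3 WT replicate 1, Week3 FasDel replicate 4, Week6 WT replicate 2 and Week6 FasDel replicate 2) stood highest for them within their groups. Hematopoietic markers stayed at or under 25.05 CPM, while erythroid markers were at 2979 to 9589 CPM in naive libraries against 17.07 to 234.8 CPM after bleomycin. Fas itself averaged 22.1 CPM in naive libraries, 41.0 and 44.2 CPM in Fas+/+ and Fas-/- libraries at 3 weeks, and 31.4 and 40.4 CPM at 6 weeks; whole-gene counts do not isolate the floxed exon, so this does not check the deletion.

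On a scale of mean CPM per kilobase of exon, which allows genes to be compared, the binding proteins were far above the ligands and the receptor in naive libraries. Igfbp7 was highest at 856, followed by Igfbp6 at 432, Igfbp5 at 375, Igfbp3 at 210 and Igfbp4 at 193 (SD 121, 83.9, 145, 12.7 and 18.2, n = 4 each). Igfbp6 and Igfbp5 had overlapping ranges, as did Igfbp3 and Igfbp4. Below them were Igf1r at 14.9, Igf1 at 9.34 and Igf2 at 8.39, the last pair also overlapping, and Igfbp2 was lowest at 3.84. In Week6 WT libraries Igfbp2 reached 77.2 ± 19.6 (SD, n = 4) on the same scale, above the ligands and the receptor.

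**Figure D1:**
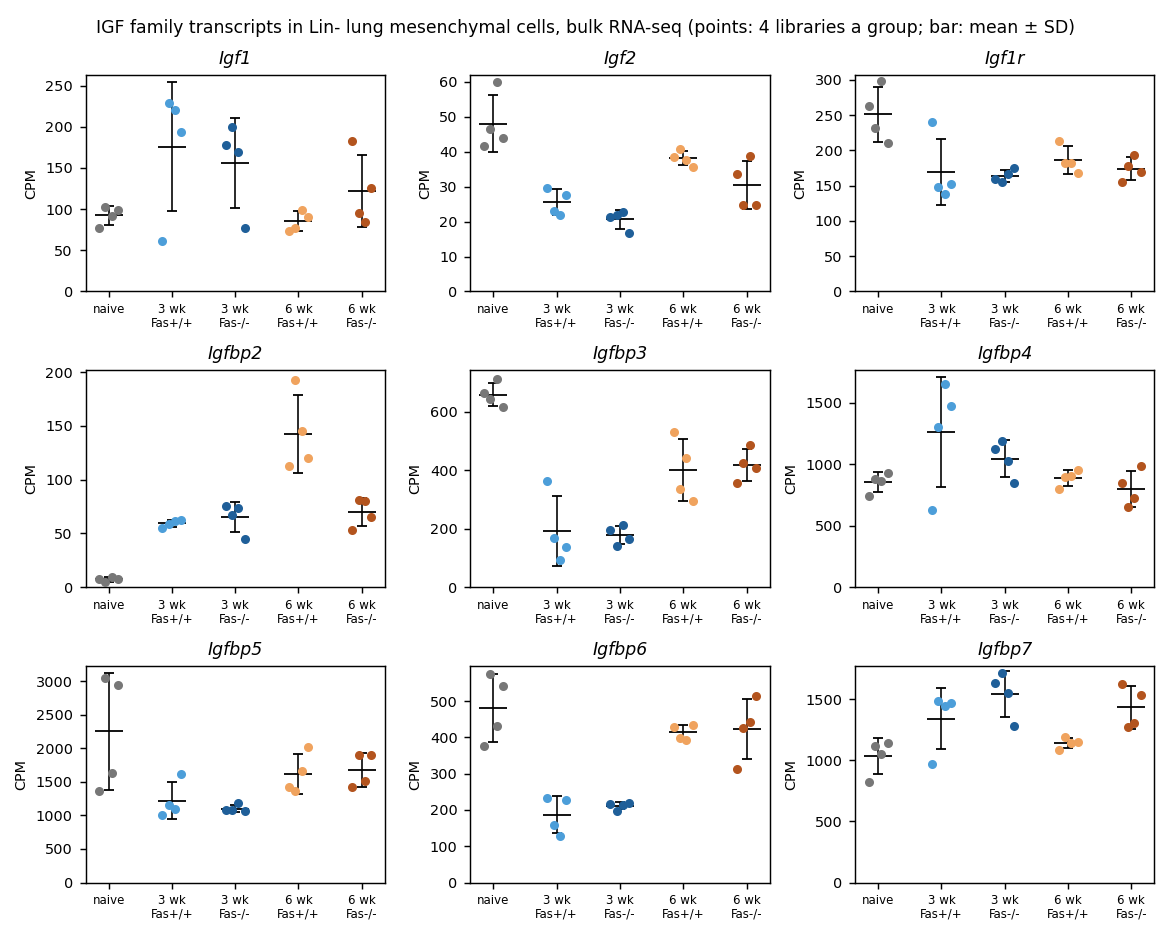
Bulk level of each of the 9 genes in CPM (linear axes from 0), with 1 point per library (4 per group) and bars for the mean ± SD. Igfbp2 rises from 4.353 to 9.36 CPM in naive libraries to 44.69 CPM or more in every bleomycin library, while Igfbp3 and Igfbp6 are lowest at 3 weeks and higher again at 6 weeks.

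The ligands moved in opposite directions at 3 weeks in Fas+/+ libraries. Igf1 was higher in Fas+/+ libraries 3 weeks after bleomycin, with 61.53, 228.5, 220.6 and 193.5 CPM against 77.27, 102.9, 91.17 and 98.78 CPM in naive libraries. Replicate 1 lay below every naive library and the other three lay above every naive library. The log2 fold change was 0.93 ± 0.34 (SE) with an adjusted p of 0.0354 by edgeR's quasi-likelihood test with Benjamini-Hochberg adjustment over all 15773 genes, the test behind every adjusted p here. This call was lost when any naive library was left out, or replicate 2, 3 or 4 of Week3 WT (adjusted p 0.0527 to 0.105), when naive and Week3 WT libraries were fitted alone (adjusted p 0.0681), and with the replicate number as a block (adjusted p 0.061). At 3 weeks in Fas-/- libraries Igf1 was at 178.3, 199.4, 169.8 and 76.8 CPM, a log2 fold change of 0.75 ± 0.34 (SE) that did not pass the test (adjusted p 0.0949). Without replicate 4, the low library, it was 0.97 with an adjusted p of 0.0321. The low Igf1 libraries, Week3 WT replicate 1 and Week3 FasDel replicate 4, are among the 4 with the highest endothelial markers, and the part of those markers in the result was not tested.

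By 6 weeks Igf1 was near naive. Week6 WT libraries had 73.08, 77.3, 99.32 and 90.94 CPM, a log2 fold change from naive of −0.12 (adjusted p 0.893), and Week6 FasDel libraries had 182.5, 95.08, 84.73 and 125.1 CPM, a log2 fold change of 0.40 (adjusted p 0.554). From 3 to 6 weeks Igf1 fell in Fas+/+ libraries, with a log2 fold change of −1.05 ± 0.34 (SE, adjusted p 0.0332). That call was lost when replicate 2, 3 or 4 of Week3 WT or any Week6 WT library was left out (adjusted p 0.0533 to 0.1), when the compared groups were fitted alone (adjusted p 0.0693), and with the replicate number as a block (adjusted p 0.0592). The same step in Fas-/- libraries was −0.36 (adjusted p 0.528), with ranges that overlapped.

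Igf2 was lower after bleomycin at 3 weeks in both genotypes and recovered in part. It was at 41.74, 46.6, 59.89 and 43.89 CPM in naive libraries, at 29.68, 23.06, 21.89 and 27.67 CPM in Week3 WT and at 21.2, 21.75, 22.78 and 16.77 CPM in Week3 FasDel. No bleomycin library at 3 weeks reached the lowest naive library. The log2 fold changes were −0.91 ± 0.15 (SE, adjusted p 0.000179) and −1.22 ± 0.15 (SE, adjusted p 3.03e-05). At 6 weeks Fas-/- libraries were still lower than naive at 33.47, 24.74, 38.84 and 24.83 CPM, with a log2 fold change of −0.66 ± 0.15 (SE, adjusted p 0.0137). Without naive replicate 3 or Week6 FasDel replicate 4 the adjusted p was 0.0574 or 0.051. Fas+/+ libraries at 6 weeks had 38.46, 40.69, 37.74 and 35.7 CPM, all below naive, but −0.33 on the log2 scale did not pass the test (adjusted p 0.224). The rise from 3 to 6 weeks passed in both genotypes, with log2 fold changes of 0.57 in Fas+/+ (adjusted p 0.0104) and 0.56 in Fas-/- (adjusted p 0.0281). The latter was lost when any of 5 libraries was left out, namely Week3 FasDel replicate 1, 2 or 4 or Week6 FasDel replicate 1 or 3 (adjusted p 0.0518 to 0.0993), when the compared groups were fitted alone (0.0783) and with the mean log2 CPM of the endothelial markers as a covariate (0.0646).

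The receptor gene Igf1r was lower at 3 weeks in both genotypes. Naive libraries had 263.1, 232.2, 298.7 and 210.1 CPM, Week3 WT had 239.7, 147.4, 138.4 and 152.7 CPM, and Week3 FasDel had 159.3, 155.8, 166.4 and 175.2 CPM. Week3 WT replicate 1 was the only 3-week library inside the naive range. The log2 fold changes were −0.57 ± 0.15 (SE, adjusted p 0.00504) and −0.61 ± 0.15 (SE, adjusted p 0.00456). At 6 weeks the level stayed below naive in Fas-/- libraries (155, 178.1, 194.1 and 168.8 CPM), with −0.53 ± 0.15 (SE) on the log2 scale and an adjusted p of 0.0382. That call was lost when any of 6 libraries was left out, namely naive replicate 1, 2 or 3 or Week6 FasDel replicate 1, 2 or 4 (adjusted p 0.0564 to 0.129), and also without TMM scaling or without the filter on low counts (0.0503 and 0.0507). Fas+/+ libraries at 6 weeks had 213.6, 182, 181.5 and 168 CPM and a log2 fold change of −0.43 with an adjusted p of 0.0998, which passed by DESeq2 (0.0498), with the compared groups fitted alone (0.0334) and without the 4 libraries highest in endothelial markers (0.0236).

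Igfbp2, a carrier that binds IGF2 with preference, had the largest fold changes from naive of the 9 genes at both times. Its naive libraries were at 7.322, 4.353, 9.36 and 7.315 CPM. Week3 WT libraries were at 55.34, 58.48, 61.42 and 62.5 CPM, and Week3 FasDel libraries at 75.55, 66.93, 73.34 and 44.69 CPM. These levels were 8.40-fold and 9.21-fold above naive, or 3.07 and 3.20 on the log2 scale, and the genotypes overlapped. At 6 weeks the genotypes separated, since Week6 WT libraries were at 112.3, 192.5, 145.2 and 120.0 CPM and Week6 FasDel libraries at 52.94, 80.84, 79.59 and 65.35 CPM. The fold over naive was 20.1 in Fas+/+ (log2 4.33) and 9.85 in Fas-/- (log2 3.30). From 3 to 6 weeks the log2 difference was 1.26 in Fas+/+ libraries and 0.10 in Fas-/- libraries.

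The genotype difference in Igfbp2 at 6 weeks was the largest among the 9 genes. Every Week6 FasDel library was below every Week6 WT library, with means of 69.68 ± 13.19 and 142.5 ± 36.18 CPM (SD, n = 4 each). The log2 difference, Fas-/- minus Fas+/+, was −1.03 ± 0.21 (SE) with an unadjusted p of 0.000107 and an adjusted p of 0.0997, which did not pass the threshold of 0.05. The exact two-sided permutation test over these 8 libraries gave p = 0.0286, the smallest it can give with 4 against 4. By DESeq2 the adjusted p was 0.000987, and without the 4 libraries highest in endothelial markers it was 0.0326 with a log2 difference of −0.94. Leaving out 1 library at a time moved the log2 difference between −1.13 and −0.86 and the adjusted p between 0.0527 and 0.387, and the value nearest 0 came without Week6 WT replicate 2. At 3 weeks the genotype difference was 0.13 ± 0.21 (SE, adjusted p 0.888). The interaction, which tests whether the genotype difference changed from 3 to 6 weeks, was −1.16 ± 0.29 (SE) with an unadjusted p of 0.000932 and an adjusted p of 0.218. For the interaction DESeq2 gave 0.0273, and the fit without the 4 libraries gave 0.0315. The interaction is also the difference between the 3-to-6-week changes of Fas-/- and Fas+/+ libraries. Those changes were given with no test because of the selection, so the interaction p-values carry that limit and no conclusion is drawn from them. The genotype differences also come from bleomycin libraries on which Igfbp2 was selected. Their p-values carry the same limit, and no conclusion is drawn from them either.

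Alveolar epithelial markers, like Igfbp2, were above naive in every bleomycin library of the bulk data and reached their highest level in Week6 WT. The 7 markers of this list summed to 24.92 to 109.8 CPM in naive libraries, 172.2 to 659.1 CPM in Week3 WT, 232.4 to 407.4 CPM in Week3 FasDel, 479.4 to 1411 CPM in Week6 WT and 113.1 to 359.2 CPM in Week6 FasDel, with none of the 7 at 0 throughout a group. Ager, a marker of alveolar type I cells, was at 80, 20.03, 98.98 and 40.49 CPM in naive libraries, at 557.5, 1030, 614.4 and 428.8 CPM in Week6 WT and at 77.42, 265.4, 321.2 and 132.7 CPM in Week6 FasDel. At 6 weeks its genotypes did not overlap either, and the library highest in Ager, Week6 WT replicate 2, was also highest in Igfbp2. At 3 weeks Ager was at 387.4, 119.7, 93.52 and 156.2 CPM in Week3 WT and at 206.1, 158.6, 234.4 and 277 CPM in Week3 FasDel. The order did not follow Igfbp2 there, because Week3 WT replicate 1 and Week3 FasDel replicate 4 each had the highest Ager and the lowest Igfbp2 of their group. As a description, the log2 CPM of Ager and Igfbp2 had a Pearson r of 0.845 over the 20 libraries and 0.556 within groups. With the mean log2 CPM of the epithelial markers as a covariate, a setting chosen after the data were seen, the Igfbp2 genotype difference at 6 weeks was −0.86 with an adjusted p of 0.387. The marker sums of the 6-week genotypes did not overlap, so this fit cannot fully separate covariate and genotype. It called 0% of all genes there. With the same covariate the Igfbp2 differences from naive were 2.53, 2.66, 3.81 and 2.96 on the log2 scale in Week3 WT, Week3 FasDel, Week6 WT and Week6 FasDel. The marker sums of naive and bleomycin libraries did not overlap either. In the same order this fit called 12%, 6.15%, 0.0761% and 1.98% of all genes (main fit 41.3%, 32%, 5.31% and 6.48%). Results with this covariate carry that limit, here and below, and no conclusion is drawn from them.

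**Figure D2:**
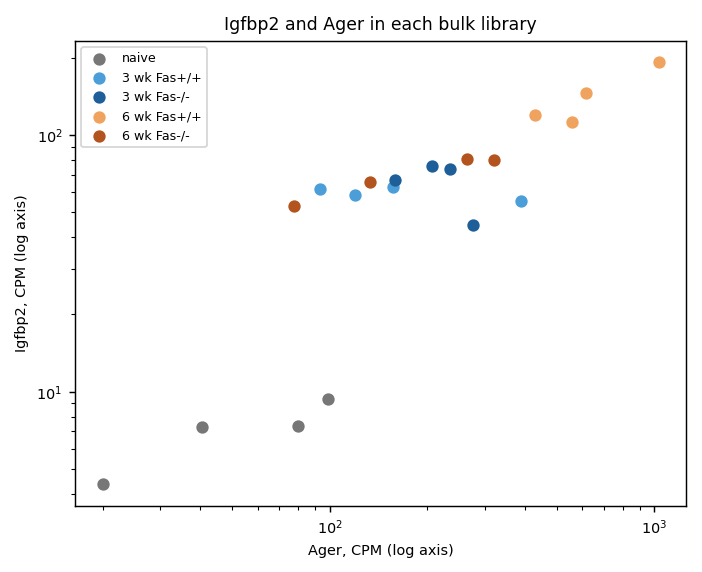
Igfbp2 against Ager in the 20 bulk libraries, both in CPM on log axes, with 1 point per library coloured by group. Week6 WT libraries lie highest on both axes, and Week3 WT replicate 1 lies at 387.4 CPM of Ager with 55.34 CPM of Igfbp2.

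Igfbp3, the main carrier of circulating IGFs, fell most of the tested binding proteins at 3 weeks. Naive libraries had 663.2, 643.4, 710.4 and 616.3 CPM, Week3 WT had 364.1, 167.7, 91.38 and 138 CPM, and Week3 FasDel had 194.6, 141.9, 213 and 164.2 CPM. No 3-week library came near the naive range. The log2 fold changes were −1.79 ± 0.30 (SE, adjusted p 0.000201) in Fas+/+ and −1.88 ± 0.30 (SE, adjusted p 0.000254) in Fas-/-. Week6 WT libraries had 531.7, 335.9, 440 and 294.2 CPM and Week6 FasDel libraries had 354.6, 423.2, 485.9 and 408.5 CPM. Every 6-week library was still below naive, but the log2 fold changes of −0.72 and −0.66 did not pass the test (adjusted p 0.18 and 0.206). Fitted with only the compared groups, they passed (adjusted p 0.0184 and 0.00366). The rise from 3 to 6 weeks was 1.07 on the log2 scale in Fas+/+ (adjusted p 0.0143, 0.0558 without Week6 WT replicate 1 and 0.0952 with the compared groups fitted alone) and 1.23 in Fas-/- (adjusted p 0.0176; 0.0506 without Week3 FasDel replicate 2).

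Igfbp6, a carrier with high preference for IGF2, was also lower at 3 weeks. It was at 375, 575.4, 431.5 and 540.3 CPM in naive libraries, at 231.9, 157.9, 128.7 and 227.5 CPM in Week3 WT and at 217.5, 197.8, 212.8 and 217.9 CPM in Week3 FasDel. Groups did not overlap, and the log2 fold changes were −1.36 ± 0.18 (SE, adjusted p 2.08e-05) and −1.18 ± 0.18 (SE, adjusted p 0.000136). At 6 weeks Fas+/+ libraries had 429.3, 398.5, 392.1 and 434.7 CPM and Fas-/- libraries had 313.6, 425, 441.8 and 512.6 CPM, within or near the naive range (adjusted p 0.551 and 0.608 against naive). Igfbp6 rose from 3 to 6 weeks by 1.15 on the log2 scale in Fas+/+ (adjusted p 0.000328) and 1.00 in Fas-/- (adjusted p 0.0031). Its calls at 3 weeks and between weeks held under every alternative run.

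Igfbp5, the most conserved of the carriers and the neighbour of Igfbp2, was lower at 3 weeks. Naive libraries were spread widely, at 1368, 3048, 1635 and 2947 CPM, while Week3 WT had 1003, 1158, 1093 and 1621 CPM and Week3 FasDel had 1076, 1082, 1186 and 1063 CPM. The log2 fold changes were −0.88 ± 0.22 (SE, adjusted p 0.00438) and −1.03 ± 0.22 (SE, adjusted p 0.00246), and only Week3 WT replicate 4 entered the naive range. With the alveolar epithelial covariate they were −0.28 (adjusted p 0.681) and −0.42 (adjusted p 0.524). That fit called 12% and 6.15% of all genes, against 41.3% and 32% in the main fit. At 6 weeks Igfbp5 was at 1419, 1368, 1668 and 2014 CPM in Fas+/+ and at 1419, 1895, 1510 and 1895 CPM in Fas-/-, which overlapped naive (adjusted p 0.245 and 0.292). The 7 mesothelial markers, which label the cells highest in Igfbp5 in the single-cell libraries, summed to 617.1 to 1173 CPM in naive libraries, 299.6 to 572.3 CPM in both 3-week groups, and 629.4 to 1115 CPM in both 6-week groups. Their part in the result was not tested.

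Igfbp4 and Igfbp7 were higher at 3 weeks in Fas+/+ libraries, and Igfbp7 also in Fas-/- libraries. Igfbp4, a carrier that inhibits IGF action until the protease PAPP-A cuts it, was at 740.9, 880.6, 860.7 and 930.7 CPM in naive libraries and at 624, 1304, 1650 and 1474 CPM in Week3 WT. Replicate 1 was again below naive and the other three above, and the log2 fold change of 0.57 ± 0.21 (SE) had an adjusted p of 0.038. The call was lost without naive replicate 1, 2 or 3 or Week3 WT replicate 2, 3 or 4 (adjusted p 0.0628 to 0.147), when the compared groups were fitted alone (0.128), with the replicate number as a block (0.0543) and with the alveolar epithelial covariate (0.0527). Week3 FasDel libraries had 1122, 1188, 1027 and 847.7 CPM, and their log2 fold change of 0.29 did not pass (adjusted p 0.299; 0.0148 without the 4 libraries highest in endothelial markers). Week6 WT libraries (796.9, 896.2, 905.9 and 948.9 CPM) and Week6 FasDel libraries (845, 649.6, 726.3 and 984.8 CPM) overlapped naive.

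Igfbp7, an abundant matrix-associated member, was at 822.3, 1120, 1052 and 1144 CPM in naive libraries. It was at 973.7, 1484, 1442 and 1469 CPM in Week3 WT and at 1629, 1713, 1550 and 1283 CPM in Week3 FasDel. All Week3 FasDel libraries and all Week3 WT libraries but replicate 1 lay above naive, with log2 fold changes of 0.38 ± 0.14 (SE, adjusted p 0.0355) and 0.58 ± 0.14 (SE, adjusted p 0.00447). The Fas+/+ call was lost without naive replicate 1 or 3 or Week3 WT replicate 2, 3 or 4 (adjusted p 0.0608 to 0.171), when the compared groups were fitted alone (0.117), without the filter on low counts (0.0528) and with the alveolar epithelial covariate (0.0774). At 6 weeks Igfbp7 stayed higher in Fas-/- libraries at 1627, 1269, 1302 and 1537 CPM (log2 fold change 0.47 ± 0.14, SE, adjusted p 0.0484), a call lost when any of the 8 libraries was left out (adjusted p 0.0598 to 0.182), with the replicate number as a block (0.0591), with RLE scaling (0.0538), without the filter (0.067) and with the alveolar epithelial covariate (0.0761). Week6 WT libraries were at 1086, 1188, 1144 and 1149 CPM, with a log2 fold change of 0.14 (adjusted p 0.63). The 6-week genotypes did not overlap for Igfbp7, but the log2 difference of 0.33 ± 0.14 (SE) had an adjusted p of 0.517.

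**Figure D3:**
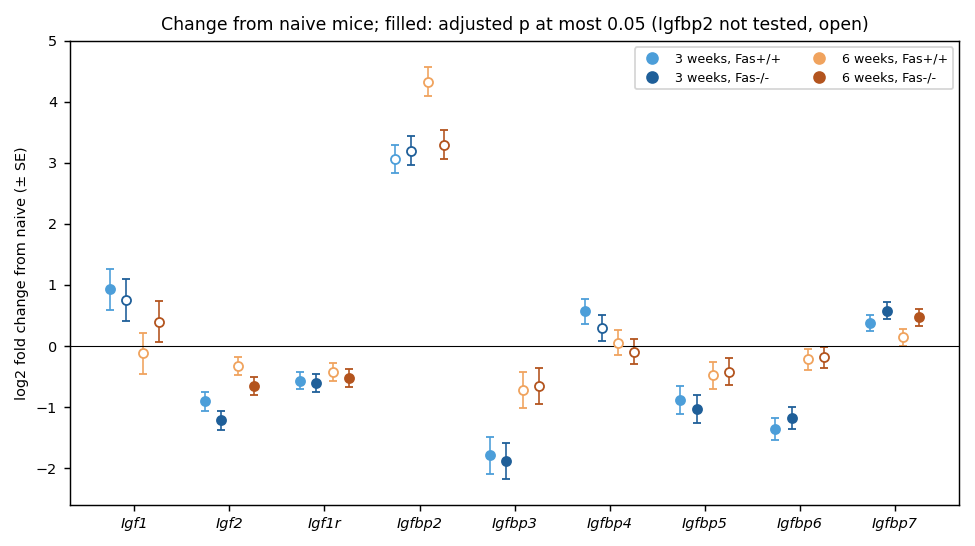
Log2 fold changes of the 9 genes with bars of 1 SE for the 4 bleomycin groups against naive, with filled points where the adjusted p was at most 0.05 and open points elsewhere, including all of Igfbp2, which was not tested against naive. The values for Igf2, Igf1r, Igfbp3, Igfbp5 and Igfbp6 lie below 0 at 3 weeks in both genotypes, and those of Igfbp2 lie between 3.07 and 4.33.

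Counted together, at 3 weeks 3 of the 8 tested members rose and 5 fell in Fas+/+ libraries, where 41.3% of all tested genes were called (22.1% higher and 19.2% lower). Among Fas-/- libraries at 3 weeks 1 rose and 5 fell, against 32% of all genes called (17.2% higher and 14.8% lower). The median log2 fold change over the 9 genes, Igfbp2 included, was −0.57 and −0.61, beside 0.01 and 0.02 over all genes. At 6 weeks none of the 8 passed in Fas+/+ libraries by edgeR, against 5.31% of all genes (3.57% higher and 1.74% lower). Igf2, Igf1r, Igfbp3 and Igfbp5 had an unadjusted p under 0.05 there, a threshold at which the share of all genes was not counted. DESeq2 called 1 of the 8 there, against 7.53% of all genes. At 6 weeks in Fas-/- libraries 1 rose and 2 fell, against 6.48% (3.66% higher and 2.81% lower). Groups that did not overlap naive made up 32.2% and 31.1% of all genes at 3 weeks (Fas+/+ first) and 16.6% and 16.1% at 6 weeks. Since all 4 comparisons share the naive libraries, they are not independent of each other.

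From 3 to 6 weeks, Igf2, Igfbp3 and Igfbp6 rose and Igf1 fell in Fas+/+ libraries, 4 of 8 tested members against 22.9% of all genes (12% higher, 10.9% lower, and 23.5% with no overlap). Week3 WT replicate 1 decided several of the remaining values. Without it Igf1r rose (log2 0.35, adjusted p 0.0193), Igfbp4 fell (−0.73, adjusted p 0.000566) and Igfbp7 fell (−0.36, adjusted p 0.0261), which made 7 of 8, while the share of all genes called in that fit was 30.5%. In Fas-/- libraries Igf2, Igfbp3 and Igfbp6 rose, 3 of 8 against 9.02% of all genes (4.48% higher, 4.54% lower, and 17.4% with no overlap), and Igfbp5 with a log2 fold change of 0.61 missed the threshold (adjusted p 0.0932).

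None of the 9 members passed the test between genotypes at 3 weeks, where 0.171% of all genes were called (0.165% higher and 0.00634% lower), or at 6 weeks, where 0.0507% were called (0.0254% higher and 0.0254% lower). At 3 weeks 3.92% of all genes did not overlap between genotypes. At 3 weeks no member had an unadjusted p under 0.05 by edgeR, and at 6 weeks Igf2, Igfbp2 and Igfbp7 did (0.0429, 0.000107 and 0.0276). The share of all genes at an unadjusted p under 0.05 was not counted, here or for the interaction. By DESeq2 the members called at adjusted p 0.05 were 0 at 3 weeks and 1, Igfbp2, at 6 weeks, where 0.964% and 0.951% of all genes were called. Igfbp2 and Igfbp7 were the members whose genotypes did not overlap at 6 weeks, 2 of 9, and 6.81% of all genes did not overlap. None of the 9 passed for the interaction either, where 0.00634% of all genes were called. Igfbp2 was again the member with an unadjusted p under 0.05, and DESeq2 called it, in a fit that called 0.516% of all genes. The limit of its selection given above applies to its genotype differences and to its interaction.

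The rest of the IGF system was examined in a list of 21 other genes, of which 17 passed the filter. At 3 weeks in Fas+/+ libraries 3 rose and 5 fell, a share close to the 41.3% of all genes. The genes that rose were the IGF-binding protein proteases Pappa (log2 0.83) and Pappa2 (1.28) and their inhibitor Stc1 (0.59). Pappa was at 16.24 to 53.89 CPM in Week3 WT against 19.52 to 25.45 CPM in naive libraries. Pappa2 was at 19.92 to 92.66 CPM against 16.76 to 38.74 CPM, so both genes overlapped naive. Those that fell were the insulin receptor gene Insr (−0.38), Kazald1 (−0.71), which encodes an IGFBP-related protein, the growth hormone receptor gene Ghr (−0.28), the signalling adaptor gene Irs1 (−0.66) and the RNA-binding protein gene Igf2bp1 (−0.95). Insr, Ghr and Irs1 also overlapped naive, whereas Stc1, Kazald1 and Igf2bp1 did not. Igf2bp1 counts were low, with group means from 12 counts per library in Week3 WT to 44.25 in Week6 WT. In Fas-/- libraries at 3 weeks Pappa2 rose (1.06) and Insr (−0.41), Kazald1 (−0.64), the protease gene Htra1 (−0.64) and Irs1 (−0.92) fell. Pappa2 and Insr overlapped naive in these libraries, and the others did not. At 6 weeks Irs1 was still lower in Fas+/+ (−0.62, adjusted p 0.0275) and Fas-/- libraries (−0.58), and Stc2 was higher in Fas-/- libraries (0.59). From 3 to 6 weeks in Fas+/+ libraries Kazald1 (0.47) and Igf2bp1 (1.58) rose and Pappa (−0.97), Stc1 (−0.59) and H19 (−1.81), the imprinted neighbour of Igf2, fell. In Fas-/- libraries Kazald1 (0.39), Stc2 (0.55) and Igf2bp1 (1.14) rose and Stc1 (−0.80) fell over the same time. No gene of this list passed between genotypes or for the interaction. Values of this list are from the main fit alone.

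Genes whose log2 CPM followed each member most closely over the 20 bulk libraries are given by Pearson's r, as a description, since the libraries share the bleomycin contrast and their cell makeup. For Igfbp2 they were Nt5e (0.954), Ndnf (0.952), Ighm (0.938), Itgb6 (0.935) and Cyp4f39 (0.933). Itgb6 encodes an integrin subunit of epithelial cells, Nt5e the surface enzyme CD73, and Ighm an immunoglobulin chain of B cells. The closest 3 genes were Fstl1 (0.97), P3h1 (0.963) and Cd276 (0.961) for Igf1. Igf2 was followed by Wfs1 (0.928) and Sc5d (0.916), among others. Igf1r was followed most closely by Insr (0.939), Eif4ebp2 (0.939) and Fam193b (0.925). Among the binding proteins, Igfbp3 was followed by Stim1 (0.966), Slc24a3 (0.963) and Il6ra (0.962), Igfbp4 by Psat1 (0.948), Rps2 (0.944) and Tubb6 (0.936), and Igfbp5 by Tmem151a (0.948), Fras1 (0.913) and Lrp2 (0.908). Igfbp6 was followed by Ang (0.972), Ldhb (0.972) and Zfp185 (0.963), and Igfbp7 by Cilp (0.954), Tshz3 (0.937) and Ctsc (0.935).

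The single-cell libraries showed which cells held the transcripts. Of 13900 barcodes, 12059 passed the filters, 603 in SC control, 2664 in SC week3 WT, 2608 in SC week3 FasDel, 3240 in SC week6 WT and 2944 in SC week6 FasDel, with median depths of 7876, 8896, 5768, 7151 and 8675 UMIs (unique molecular identifiers) per cell. Cells formed 23 clusters, and 11 classes were named from marker genes, with none of the IGF genes among the 3000 features used. The largest clusters left unnamed were clusters 2, 5, 8 and 13, with 1321, 781, 591 and 395 of the 12059 cells. Orders and ranges of classes below leave the unnamed clusters out. With 1 library per condition there is no test between conditions, and intervals are exact Poisson or binomial 95% intervals that cover counting error only. Libraries shared 607 barcodes, and 350 of the 603 control cells (58%) carried a barcode also found in another library, where the control copy was deeper by a median of 10.8-fold to 23.2-fold. Levels are given as CPM, as for bulk but of the summed UMIs of the cells and with no further scaling. Control values are therefore also given without the shared barcodes where they differ. Leaving those barcodes out took the control library from 5615583 to 1302752 UMIs. With only the deepest copy of each kept, 591 control cells remained. Over those cells Igf1 was at 127 CPM, Igfbp2 at 24.8, Igfbp5 at 1053, Igfbp6 at 1201 and Igfbp7 at 2813 CPM. These lay within the counting intervals of the values from all control cells.

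Igfbp2 transcripts were concentrated in few cells. Over all libraries its level was 5409 CPM (95% interval 5298 to 5521) in the 202 alveolar epithelial-like cells, whose leading genes were Ager, Sftpc, Cldn18 and Aqp5. It was 142 CPM (137 to 148) in 885 profibrotic fibroblast-like cells (leading genes Spp1, Thbs4, Cthrc1 and Grem1). Next were Col14a1 fibroblast-like cells at 21.4 CPM (18.9 to 24.1) and mesothelial-like cells at 16.2 CPM (13.6 to 19.2), while lipofibroblast-like cells were at 2.4 CPM (1.7 to 3.3). In 90 lymphatic endothelial-like cells no Igfbp2 UMI was seen (exact 95% interval up to 4.99 CPM). At least 1 UMI was present in 166 of 202 alveolar epithelial-like cells (82.2%, median depth 5060 UMIs) and in 187 of 885 profibrotic fibroblast-like cells (21.1%, median depth 17543 UMIs). For comparison, 31 of 1813 lipofibroblast-like cells (1.71%, median depth 8411 UMIs) and 20 of 1412 endothelial-like cells (1.42%, median depth 5560 UMIs) held one. Of the 187 profibrotic fibroblast-like cells, 4 also had UMIs of at least 2 alveolar epithelial markers.

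**Figure D4:**
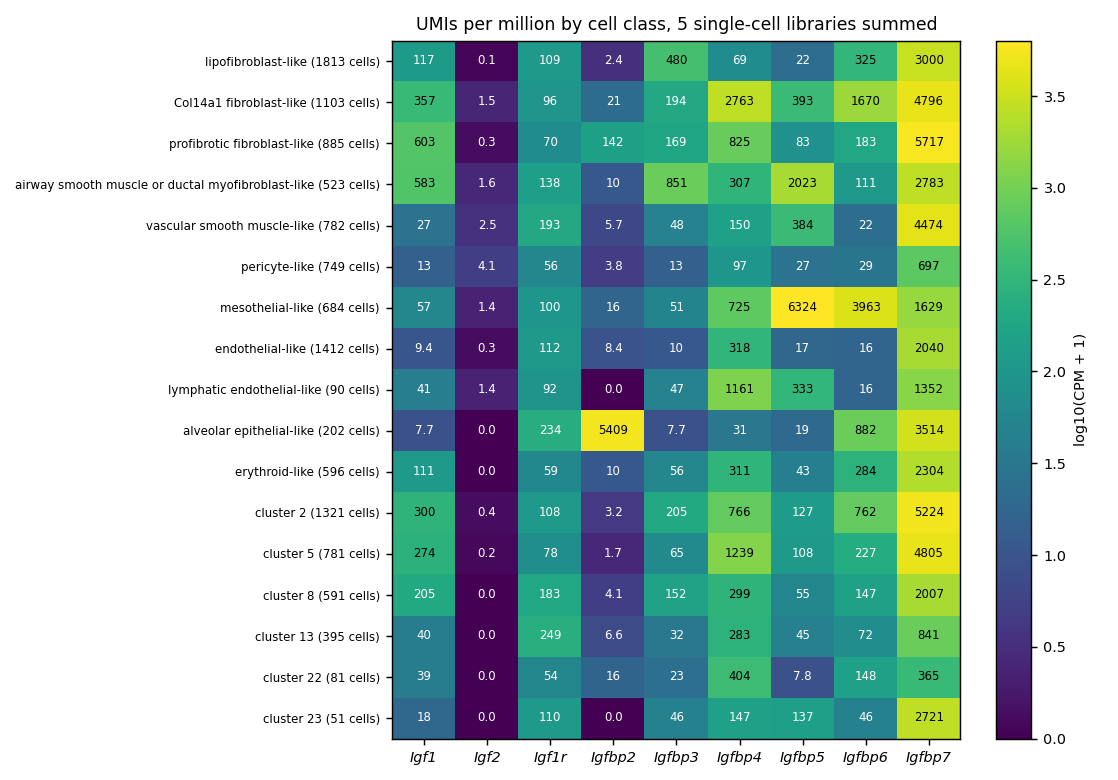
Level of each of the 9 genes in each cell class, summed over the 5 single-cell libraries, with colour as log10(CPM + 1) and the CPM printed in each cell and with rows for the 11 named classes and the unnamed clusters. Igfbp2 stands out in alveolar epithelial-like cells at 5409 CPM, Igfbp5 and Igfbp6 in mesothelial-like cells at 6324 and 3963 CPM, and Igfbp7 is present in every named class.

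The alveolar epithelial-like class was small in every library, with 2, 77, 18, 52 and 53 cells in SC control, SC week3 WT, SC week3 FasDel, SC week6 WT and SC week6 FasDel, and it held a large share of the Igfbp2 UMIs. Its share was 83.6% in SC control (117 of 140 UMIs, 95% interval 76.4% to 89.3%) and 89% in SC week3 WT (4481 of 5037, 88.1% to 89.8%). It was 60.9% in SC week3 FasDel (927 of 1523, 58.4% to 63.3%), 50.5% in SC week6 WT (1358 of 2691, 48.6% to 52.4%) and 72.8% in SC week6 FasDel (2231 of 3066, 71.2% to 74.3%). Profibrotic fibroblast-like cells held 0.714%, 6.31%, 29.9%, 43.7% and 21.4% in the same order. The CD326 gate should remove epithelial cells, and Epcam was at 190 CPM in the 77 epithelial-like cells of SC week3 WT, beside 19347 CPM of Ager and 3053 CPM of Sftpc. Without the shared barcodes the share was 86.4%, 48.5%, 49.8% and 72.6% in the 4 bleomycin libraries. For SC week6 WT it was 43.2% (41.1% to 45.2%) with at most 10% mitochondrial UMIs and 49.8% (47.9% to 51.7%) with classes set by marker UMIs. Without the shared barcodes the control library had 253 cells and no Igfbp2 UMI (exact 95% interval up to 2.83 CPM). With only the deepest copy of each shared barcode kept, it had 139 Igfbp2 UMIs, 84.2% of them in the epithelial-like class.

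Within alveolar epithelial-like cells the Igfbp2 level was 5606 CPM in SC week3 WT, 6955 CPM in SC week3 FasDel (18 cells), 3271 CPM in SC week6 WT and 7024 CPM in SC week6 FasDel. Within profibrotic fibroblast-like cells it was 208, 271, 173 and 78.5 CPM in the same order, and the control library had 11 such cells with 1 UMI. These levels rested on few cells. The 10 highest cells held 46.5%, 96%, 74.9% and 81.6% of the Igfbp2 UMIs of the epithelial-like class, whose median cells had 22, 23, 4 and 5 UMIs, and 90.3%, 59.8%, 69.8% and 66.8% of those of the profibrotic class, whose median cells had 0. Markers of the epithelial-like class also differed between libraries. Ager was at 19347, 20024, 12877 and 16210 CPM and Sftpc at 3053, 7.5, 9952 and 2717 CPM in that class, in the same order. The part of this makeup in the Igfbp2 levels was not tested. Over all cells Igfbp2 was at 24.9 CPM in the control library (21 to 29.4), 188 CPM in SC week3 WT (183 to 193), 89.2 CPM in SC week3 FasDel (84.8 to 93.8), 76.9 CPM in SC week6 WT (74 to 79.8) and 91.1 CPM in SC week6 FasDel (87.9 to 94.3). Without the alveolar epithelial-like cells these became 4.11, 21.4, 35.2, 38.5 and 25 CPM. Over all cells, SC week6 FasDel was thus above SC week6 WT, whereas it was below it without the epithelial-like cells, and in bulk the Week6 FasDel libraries were below Week6 WT.

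**Figure D5:**
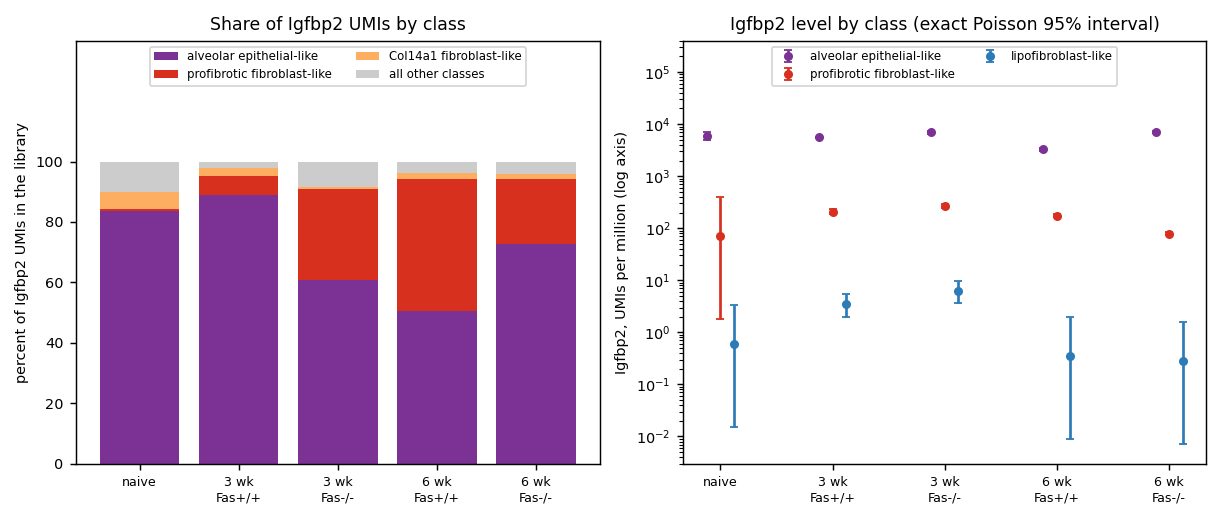
Left, percent of each single-cell library's Igfbp2 UMIs held by alveolar epithelial-like, profibrotic fibroblast-like, Col14a1 fibroblast-like and all other cells. Right, Igfbp2 level in CPM on a log axis in 3 classes per library, with exact 95% Poisson intervals that cover counting error only, where alveolar epithelial-like cells lie between 3271 and 7024 CPM and lipofibroblast-like cells at 6.15 CPM or less.

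Apart from Igf1r and Igf2, the other members were highest among the named classes in stromal or mesothelial-like cells. Some were also found in endothelial and epithelial classes. Igf1 was highest in profibrotic fibroblast-like cells at 603 CPM (592 to 614) and in airway smooth muscle or ductal myofibroblast-like cells at 583 CPM (560 to 606), followed by Col14a1 fibroblast-like cells at 357 CPM (346 to 367). In the profibrotic class it was at 383, 640, 760 and 510 CPM in SC week3 WT, SC week3 FasDel, SC week6 WT and SC week6 FasDel. In the airway smooth muscle or ductal myofibroblast-like class it was at 366 CPM in the control library, 363 and 346 CPM at 3 weeks, and 874 and 625 CPM at 6 weeks (Fas+/+ first). Over all cells Igf1 was at 127, 146, 203, 324 and 324 CPM from control to SC week6 FasDel, so its highest single-cell libraries were those of 6 weeks, where bulk Igf1 was near naive. Endothelial-like cells, low in Igf1, made up 27.3% of SC week6 WT and 6.18% of SC week6 FasDel, and over the fibroblast-like classes Igf1 was at 550 CPM (537 to 563) and 410 CPM (400 to 420). Those classes are the lipofibroblast-like, Col14a1 fibroblast-like and profibrotic fibroblast-like ones, without any unnamed cluster. Unnamed clusters 2, 5 and 8 had Igf1 at 300, 274 and 205 CPM. Without the shared barcodes the control value over all cells was 102 CPM.

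Igf1r was spread over all classes, highest among the named ones in alveolar epithelial-like cells at 234 CPM (211 to 258) and vascular smooth muscle-like cells at 193 CPM (182 to 204), and lowest in pericyte-like cells at 56.4 CPM (49 to 64.7). In vascular smooth muscle-like cells it stayed between 184 and 204 CPM in all 5 libraries. Igf2 was almost undetected, with 9, 32, 20, 14 and 15 UMIs in the 5 libraries, too few to name a class as its source. Over all cells of a library that was 0.4 to 1.6 CPM, against bulk group means of 20.62 to 48.03 CPM. The reason for this gap was not tested. Gm49394, which shares exonic bases with Igf2, had 0 UMIs in every library.

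Igfbp3 was highest in airway smooth muscle or ductal myofibroblast-like cells at 851 CPM (824 to 879) and in lipofibroblast-like cells at 480 CPM (470 to 491). In both classes the control library was highest. The former went from 1497 CPM in control to 1038, 826, 649 and 747 CPM in SC week3 WT, SC week3 FasDel, SC week6 WT and SC week6 FasDel, and the latter from 836 CPM to 564, 397, 496 and 260 CPM. Over all cells Igfbp3 was at 452 CPM in control and 236, 230, 162 and 124 CPM in the bleomycin libraries. Without the shared barcodes control was at 1439 CPM in the former class (27 cells), 784 CPM in the latter (76 cells) and 542 CPM over all cells, still the highest of the 5 libraries in each case.

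Igfbp4 was highest in Col14a1 fibroblast-like cells at 2763 CPM (2734 to 2792), against 68.8 CPM (64.8 to 73.1) in lipofibroblast-like cells. The study itself used Igfbp4 among the genes by which it named such cells, so it was kept out of the markers here and its level there is not independent of that naming. Its level in the former was 2000 CPM in control (10 of 58 cells remain without the shared barcodes), 2498 and 1799 CPM at 3 weeks and 3117 and 3362 CPM at 6 weeks (Fas+/+ first). Over all cells Igfbp4 was at 609 and 462 CPM at 3 weeks and 1011 and 959 CPM at 6 weeks. Its bulk means were instead lower at 6 weeks than at 3 weeks, a difference not called in the main fit. Lymphatic endothelial-like cells were the next highest named class for Igfbp4, at 1161 CPM (1084 to 1241), below unnamed cluster 5 at 1239 CPM (1220 to 1258). Igfbp5 was highest in mesothelial-like cells at 6324 CPM (6271 to 6378) and then in airway smooth muscle or ductal myofibroblast-like cells at 2023 CPM (1981 to 2066). In the latter it was at 3402 CPM in control and at 1887, 2168, 1920 and 1779 CPM after bleomycin, and in mesothelial-like cells it ranged from 5452 to 7737 CPM. Without the shared barcodes, Igfbp5 in the airway smooth muscle or ductal myofibroblast-like class was at 2782 CPM in control, and over all control cells it was at 329 CPM rather than 1052 CPM, and 1 of 24 mesothelial-like control cells then remained. Over all cells Igfbp5 was at 887 and 747 CPM at 3 weeks and 491 and 490 CPM at 6 weeks (Fas+/+ first). Its bulk means were instead higher at 6 weeks than at 3 weeks, a difference not called in the main fit.

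Igfbp6 was highest in mesothelial-like cells at 3963 CPM (3921 to 4006) and Col14a1 fibroblast-like cells at 1670 CPM (1648 to 1693). Alveolar epithelial-like cells came next among the named classes at 882 CPM (838 to 928). Mesothelial-like cells had 6895 CPM in control and 4123, 3683, 3063 and 4064 CPM after bleomycin, and Col14a1 fibroblast-like cells had 1865, 1835, 1918, 1526 and 1463 CPM from control to SC week6 FasDel. Igfbp6 over all control cells was at 1200 CPM, or 406 CPM without the shared barcodes and 1201 CPM with only their deepest copies. The control values of both classes rest on the cells with shared barcodes (1 and 10 cells remain without them). Over all cells after bleomycin, Igfbp6 was at 990 and 917 CPM at 3 weeks and 453 and 522 CPM at 6 weeks (Fas+/+ first). Over the fibroblast-like classes it was at 922 and 785 CPM, then 495 and 435 CPM. The single-cell level was thus lower at 6 weeks than at 3 weeks, whereas bulk Igfbp6 rose between those times. Igfbp7 ranged from 697 CPM (670 to 724) in pericyte-like cells to 5717 CPM (5683 to 5752) in profibrotic fibroblast-like cells. It was at 3514 CPM (3425 to 3604) in alveolar epithelial-like cells and 2040 CPM (2011 to 2069) in endothelial-like cells. In lipofibroblast-like cells it was at 2159 CPM in control (2515 CPM without the shared barcodes), 2415 and 3308 CPM at 3 weeks and 3368 and 3610 CPM at 6 weeks (Fas+/+ first), and over all cells it was at 2811, 3307, 4112, 3771 and 4591 CPM (control 2284 CPM without the shared barcodes). In each genotype single-cell Igfbp7 was thus higher at 6 weeks than at 3 weeks. Its bulk means were instead lower at 6 weeks, a difference not called in the main fit.

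Some of the other IGF genes, named after their single-cell values were seen, were also concentrated. Pappa2 was held mainly by airway smooth muscle or ductal myofibroblast-like cells at 237 CPM and was a leading gene of that cluster, with at most 2.68 CPM in the other named classes. Kazald1 was highest in the same class at 111 CPM. Htra1 was highest in Col14a1 fibroblast-like cells at 319 CPM, and Igf2bp1 reached 16.9 CPM in mesothelial-like cells.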

How the data were processed

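Bulk RNA-seq (20 libraries) and single-cell RNA-seq (5 libraries) of sorted mouse lung cells were used. The members, the gene lists and the tests were chosen with earlier results of these data known. Per the methods of the study, bulk reads of poly(A) RNA (a stranded KAPA kit) were trimmed with skewer, aligned to GRCm38 with Hisat2 and counted per gene with htseq-count on Ensembl v84. The values used are the raw counts that the authors deposited. A deposited table of normalized counts was not used. For single cells, the deposited values are UMI counts per gene and barcode from Cell Ranger.

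Counts of all 20 libraries were fitted in 1 model with edgeR 4.0.16 (filterByExpr with a minimum count of 10, TMM scaling, quasi-likelihood F test, Benjamini-Hochberg adjustment, threshold 0.05; R 4.3.3). Single members were also compared by exact two-sided permutation tests over libraries (66 tests), of which 23 had p at most 0.05 (smallest possible 0.0286). These tests share libraries and were not run over all genes, so no conclusion is drawn from their count. By comparison, 3.92% (Week3 FasDel against Week3 WT) to 32.2% (Week3 WT against naive) of all genes had groups that did not overlap. Replicate libraries differed beyond sampling noise. Alternatives were DESeq2 1.42.0, other scalings, filters and sample sets, a replicate block, libraries left out, and marker covariates.

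Barcodes were filtered to 200 to 7500 detected genes and no more than 20% of UMIs from mitochondrial genes, normalized with sctransform 0.4.2, integrated and clustered with Seurat 5.3.0 (20 components, resolution 0.8). Clusters were named from marker lists, and those with fewer than 3 raised markers were left unnamed. Clusters with few UMIs were left unnamed only if none of the list's markers was among their leading genes. Named classes therefore include shallow clusters, such as a lipofibroblast-like one with a median of 821 UMIs. Scrublet called 49 cells (0.406%), too few to have worked, so no cells were removed as doublets and the 5% with the highest scores were left out as an alternative. Scripts were tested on simulated data. All 9 members, the called genes of a list of 21 other IGF genes, and the genes most correlated with each member (5 for Igfbp2, 3 for the others) are named, except 1 gene that is not reported here.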

Additional observations from a re-analysis of the deposited data

Results flagged for a closer look

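Among the 45 sets of 4 libraries (9 genes in 5 groups), 3 had a library whose gap to its nearest neighbour, as a share of the whole range, was above Dixon's 95% critical value. Chance flags about 1 in 20 sets, and here 6.67% were above it. Igf1r in Week3 WT replicate 1 was at 239.7 CPM, against 138.4 to 152.7 CPM in the other three libraries of the group (gap over range 0.859). Igfbp7 in the same library was at 973.7 CPM, against 1442 to 1484 CPM (0.918). Igfbp5 in Week3 FasDel replicate 3 was at 1186 CPM, against 1063 to 1082 CPM (0.846). Week3 WT replicate 1 also had the highest summed endothelial markers of the 20 libraries, 7470 CPM, and their part in its values was not tested.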

How the results depend on the processing

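Of 24 called log2 fold changes none changed sign under any alternative, and 12 were called under every one. Among 1449 alternative values, 1305 kept their direction and side of the threshold, 69 lost and 26 gained the call, and 48 changed sign, all among values not called. Igfbp2 against naive in Week3 WT moved to 2.53 with the alveolar epithelial covariate.

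Counts of members called moved as follows. Against naive, Week3 WT fell from 8 to 5 with only the compared groups or the epithelial covariate (5 to 8 with a library left out). The shares of all genes called in those fits were 32.6%, 12% and 34.6% to 45.8%, against 41.3% in the main fit. Week6 WT went from 0 to 1 with DESeq2, 2 with only the compared groups and 1 without the 4 libraries high in endothelial markers, and Week6 FasDel from 3 to 1 without the filter (0 to 2 with a library left out). For Week6 WT those fits called 7.53%, 10.7% and 9.62% of all genes, against 5.31% in the main fit. For Week6 FasDel the share was 2.52% (3.43% to 5.25% with a library left out), against 6.48%. Between genotypes the count went from 0 to 1 without those 4 libraries at 3 weeks (Igfbp4), and from 0 to 1 at 6 weeks and for the interaction, each with DESeq2 and without those 4 libraries (Igfbp2). Without those 4 libraries 8.13% of all genes were called at 3 weeks, against 0.171% in the main fit. DESeq2 and the fit without them called 0.951% and 0.738% at 6 weeks (main fit 0.0507%). For the interaction they called 0.516% and 1.58% (main fit 0.00634%). From 3 to 6 weeks, Fas+/+ went from 4 to 2 with only the compared groups and 7 without those 4 libraries (2 to 7 with a library left out), and Fas-/- from 3 to 1 at the lowest (1 to 3). In Fas+/+ those fits called 19.2%, 37% and 15.3% to 30.5% of all genes, against 22.9% in the main fit. In Fas-/- the share with a library left out was 3.54% to 9.07%, against 9.02%.

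Deviations of same-numbered libraries from their group means correlated above 0.1 in 14 of 40 pairs (range −0.464 to 0.403). Pairs with different numbers were not compared, so this cannot show whether the numbers pair libraries. With the replicate block 4 calls were lost: Igf1 in Week3 WT (adjusted p 0.061) and from 3 to 6 weeks in Fas+/+ (0.0592), Igfbp4 in Week3 WT (0.0543) and Igfbp7 in Week6 FasDel (0.0591).

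Signs changed for these uncalled log2 values, the cause of which was not tested. With the endothelial covariate they were 0.39 for Igf1 in Week6 WT, 0.014 for Igfbp4 in Week6 FasDel, 0.038 for Igf1r and 0.056 for Igfbp3 between genotypes at 3 weeks, and 0.0045 for the Igf2 interaction. With the epithelial covariate they were 0.78 for Igf1 and 0.074 for Igfbp5 in Week6 WT, 0.26 for Igfbp4 in Week6 FasDel, 0.0046 for Igf1r and −0.11 for Igfbp5 between genotypes at 6 weeks, and 0.052, 0.035 and −0.075 for the interactions of Igf2, Igf1r and Igfbp4. Without the 4 libraries they were 0.13 for Igf1r and 0.46 for Igfbp3 between genotypes at 3 weeks, −0.023 for Igfbp3 and −0.083 for Igfbp5 at 6 weeks, −0.12 for Igfbp2 from 3 to 6 weeks in Fas-/-, and −0.48 for the Igfbp3 interaction. Without TMM, Igfbp6 between genotypes at 6 weeks was −0.016.

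Leaving out a library gave −0.012 to 0.10 for Igfbp4 in Week6 WT. Between genotypes at 3 weeks it gave −0.46 to 0.049 for Igf1, −0.13 to 0.17 for Igf1r, −0.32 to 0.43 for Igfbp3 and −0.23 to 0.024 for Igfbp5, and at 6 weeks −0.064 to 0.23 for Igfbp3, −0.022 to 0.17 for Igfbp5 and −0.072 to 0.15 for Igfbp6. It gave −0.042 to 0.21 for Igfbp2 from 3 to 6 weeks in Fas-/-, and for the interactions −0.16 to 0.073 for Igf2, −0.26 to 0.034 for Igf1r, −0.37 to 0.39 for Igfbp3 and −0.030 to 0.35 for Igfbp4.

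In single cells, 570 of 630 levels stayed within their counting interval at no more than 10% mitochondrial UMIs, 635 of 657 without Scrublet's doublets, 567 of 657 without the highest scores, 632 of 639 with only the deepest copy of shared barcodes, 524 of 612 without shared barcodes, and 208 of 387 when cells were classed by marker UMIs. Few UMIs were counted for Igf2 in single cells and for Igfbp2 outside its main classes, which limits those values.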
